A study of Mus musculus with 6 samples.

Results

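The mitochondrial genome genes are the genes carried by the small circular DNA of mitochondria. All gene rows on chromosome MT were taken, in order of their start, which gave 35 of 49315 genes: 13 rows for mRNAs and 22 for tRNAs (the rRNA genes were not analysed here). They were measured by RNA sequencing of granulosa cells, the follicle cells that enclose and feed the oocyte, in 3 libraries labelled wild type (WT) and 3 labelled knockout (KO). The KO label stands for a knockout of Jmjd3 specific to granulosa cells, and the comparison asks which genes differ between libraries with these labels. Jmjd3, also named Kdm6b, encodes an enzyme that removes methyl groups from lysine 27 of histone H3, a mark of silenced genes. Both groups were labelled as C57BL/6J mice aged 8 to 9 weeks, with cells isolated fresh from the ovary, no other treatment named, and paired reads of 150 bases. Not given in the sources used here are the Cre driver, the deleted part of the gene and whether each library came from a separate animal. The p-values below therefore measure only how these libraries vary, and that variation may be technical.

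Mitochondrial DNA encodes core subunits of the respiratory chain (complexes I, III and IV) and of ATP synthase, and the RNAs needed to translate them. Both strands are transcribed as long precursors, from which mRNAs are released where the tRNAs that lie between them are cut out. Pieces of mitochondrial DNA have also been inserted into the nuclear chromosomes during evolution, and a read from sequence shared with such a copy can be placed on either. Follicular granulosa cells are known to supply the oocyte with metabolites, and their own steroid synthesis starts inside mitochondria.

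Among the 35 rows, 4 neighbours were lower in KO (4 of 32 tested, where 0.0932% of all genes tested were lower): mt-Tg, mt-Nd3, mt-Tr and mt-Nd4l, which lie next to each other on the plus strand. The nuclear row Gm28438, which copies mt-Nd3, was higher in KO, and the sum of mt-Nd3 and Gm28438 did not differ beyond the spread between libraries. No other mitochondrial row passed the test. The mRNA rows with most of the counts, led by mt-Co1 and mt-Cytb, had overlapping groups.

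The 4 rows share a stretch of the mitochondrial genome that is copied on chromosome 1. On GRCm38, positions 6390 to 11042 of MT (4653 bases) matched 7 annotated nuclear genes that lie in inverted order between 24611535 and 24616197 on the minus strand of chromosome 1. The copy of mt-Nd3 is Gm28438 (chromosome 1, 24612775 to 24613119), with 345 aligned bases and 99.7% identity. The copy of mt-Nd4l is Gm10222 (chromosome 1, 24612407 to 24612700), with 294 aligned bases and 100% identity. The start of mt-Nd3 and of Gm28438 is shown because these rows moved in opposite directions and differ at 1 base. The capital marks that base, T3C, counted from 1 at the 5′ end of each gene.
mt-Nd3: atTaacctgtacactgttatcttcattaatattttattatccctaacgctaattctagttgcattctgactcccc
Gm28438: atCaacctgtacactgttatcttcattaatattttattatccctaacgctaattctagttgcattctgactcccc

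The position of T3C is 9461 on MT, the third base of the first codon of mt-Nd3 (MT 9459 to 9806, plus strand). It lies 3 bases after the end of mt-Tg (MT 9391 to 9458), 71 bases from mt-Co3, 347 from mt-Tr and 416 from mt-Nd4l. Between MT 9804 and 9876, an interval that holds mt-Tr (MT 9808 to 9875), the chromosome 1 copy is longer by 1 base, as the coordinates of the annotated copies on either side show. The sequences of the neighbouring tRNAs whose rows differed are shown for their place at these points. Capitals mark the longest run of A in mt-Tr, 8 bases at MT 9821 to 9828.
mt-Tg: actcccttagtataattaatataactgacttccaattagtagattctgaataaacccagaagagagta
mt-Tr: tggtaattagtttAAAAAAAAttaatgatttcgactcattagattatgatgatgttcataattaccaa

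The other difference found between the stretch and its annotated copies was A1066T in mt-Co1 against Gm29216, at the edge of that alignment. Of all 150-base windows, 99.4% in mt-Co2, 99.4% in mt-Atp6, 99.8% in mt-Co3, 97.0% in mt-Nd3 and 98.0% in mt-Nd4l were identical to an annotated nuclear transcript. The share was 59.2% in mt-Nd4, 23.6% in mt-Co1 and 0% in mt-Nd1, mt-Nd2, mt-Nd5, mt-Nd6, mt-Cytb and mt-Atp8. The search covered annotated transcripts, so unannotated copies, also those of the tRNAs and of mt-Atp8, were not looked for.

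Library totals ran from 42379018 to 49901493 counts. Levels are given as CPM, counts scaled to library size, where 1 CPM corresponds to 42.5 counts in KO replicate 2 and up to 51.4 counts in WT replicate 1. Kdm6b, the targeted gene, had 72.8, 66.3 and 66.2 CPM in WT and 64.7, 68.6 and 112 CPM in KO, so the groups overlapped (log2 fold change 0.26, SE 0.22, edgeR adjusted p = 0.755). A count over the whole gene can include exons that were not deleted, so this value does not check the label. All 13 granulosa cell markers were detected, summing to between 15340 and 17455 CPM in WT and between 17228 and 24383 CPM in KO. Of these markers, 10 had a positive and 3 a negative log2 fold change, and 1 was called, lower in KO. That marker, Amhr2, had 240, 268 and 293 CPM in WT and 141, 127 and 130 CPM in KO. Its log2 fold change was -1.01 (SE 0.09, edgeR adjusted p = 0.00212). No marker of the other 9 cell types checked was at 0. KO replicate 3 stood apart from the other KO libraries, with the highest sum of granulosa markers. Summed red blood cell markers (383 to 798 CPM in WT, 830 to 2260 in KO) and theca markers (229 to 301 in WT, 343 to 491 in KO) were higher in every KO library, with 1 of 7 and 0 of 6 markers called. All 7 red blood cell markers had a positive log2 fold change, but the theca markers were split, 3 positive and 3 negative (median 0.06). Luteal markers had 8 of 8 positive (median 0.61) and 0 called, with overlapping sums of 9113 to 11249 CPM in WT and 10946 to 19485 CPM in KO. Summed oocyte markers were lower in every KO library (663 to 866 in WT, 537 to 601 in KO), with 11 of 12 negative and 0 called. Their part in the differences below was not tested, and in bulk RNA fewer cells of a type and less RNA per cell cannot be told apart.

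Complex I, which passes electrons from NADH into the respiratory chain, has 7 of the mitochondrial mRNAs, among them both whose rows differed. mt-Nd3, a small membrane subunit of complex I, had 7.59, 10.9 and 10.6 CPM in the WT libraries and 0.256, 0.377 and 0.291 CPM in the KO libraries. Every KO library was far below every WT library. The means were 9.70 ± 1.84 CPM in WT and 0.308 ± 0.0622 CPM in KO (SD, n = 3 each), a log2 fold change of -4.97 (SE 0.23, 95% interval -5.49 to -4.45, edgeR adjusted p = 3.13e-05). The pooled counts, 1444 in WT and 42 in KO, put the level in WT 31.6 times as high (95% interval 23.3 to 44.1, counting error only).

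The nuclear row Gm28438 showed the opposite order. It had 0.214, 0.546 and 0.416 CPM in WT and 13.1, 10.6 and 10.3 CPM in KO. Again no KO library came near a WT library, now from above. The log2 fold change was 4.86 (SE 0.27, edgeR adjusted p = 0.000120). Added together, mt-Nd3 and Gm28438 had 7.80, 11.5 and 10.99 CPM in WT and 13.4, 10.95 and 10.6 CPM in KO, and the groups overlapped. The log2 fold change of the sum was 0.21 (SE 0.16, 95% interval -0.15 to 0.57, edgeR adjusted p = 0.718), so that an increase or decrease within that interval could not be seen with these libraries.

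mt-Nd4l, the smallest mitochondrially encoded subunit of the membrane arm of complex I, had 1.38, 1.26 and 1.51 CPM in WT and 0.469, 0.471 and 0.395 CPM in KO, again without overlap. The log2 fold change was -1.63 (SE 0.22, 95% interval -2.12 to -1.14, edgeR adjusted p = 0.0247). The call rested on few counts, 207 in WT and 61 in KO, and was lost when any library other than KO replicate 3 was left out, with adjusted p up to 0.178. Its copy Gm10222 had 0.409, 0.504 and 0.317 CPM in WT and 1.75, 1.01 and 1.29 CPM in KO. All KO libraries were above all WT libraries, with a log2 fold change of 1.72 (SE 0.29) that did not pass the edgeR test (adjusted p = 0.0613). Gm10222 passed in DESeq2 (adjusted p = 0.000634) and not in limma-voom (adjusted p = 0.0611). In all it passed under 3 of 13 alternatives to the fit. The sum of mt-Nd4l and Gm10222 was 1.79, 1.76 and 1.82 CPM in WT and 2.22, 1.48 and 1.68 CPM in KO. KO replicate 1 was the highest and KO replicate 2 the lowest of the 6 sums, and the log2 fold change was 0.0035 (SE 0.20, 95% interval -0.43 to 0.44, edgeR adjusted p = 0.997).

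**Figure D1:**
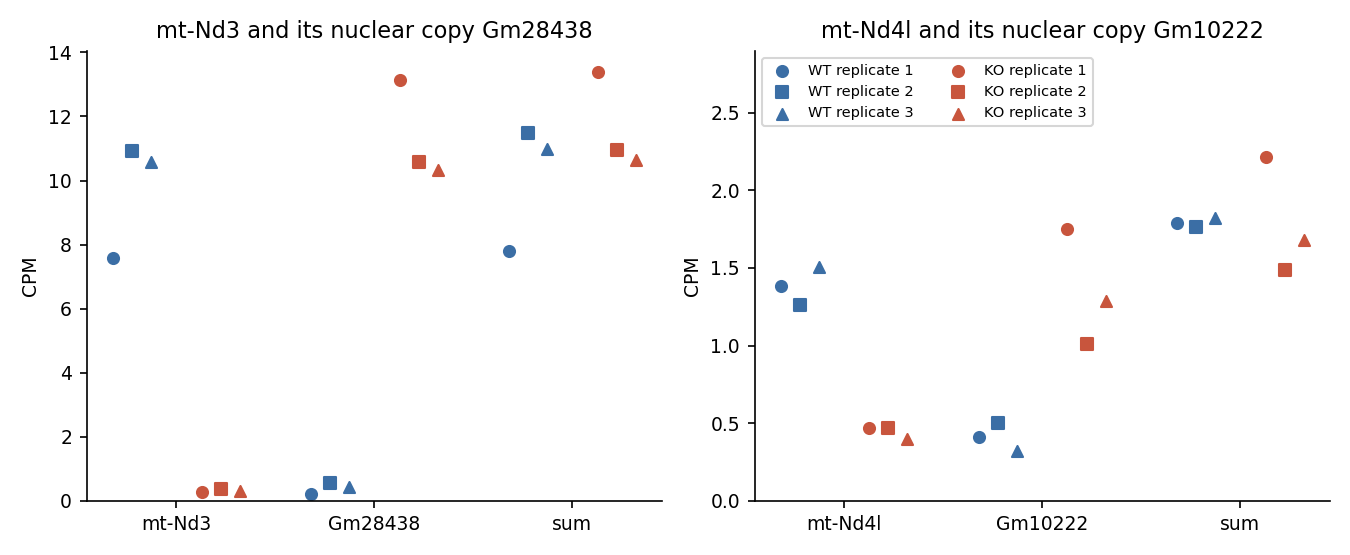
CPM of mt-Nd3, its nuclear copy Gm28438 and their sum (left) and of mt-Nd4l, its copy Gm10222 and their sum (right), 1 point per library, WT in blue and KO in red. In each panel the mitochondrial row is lower and the nuclear row higher in all 3 KO libraries, and the sums overlap, from 7.80 to 13.4 CPM on the left and from 1.48 to 2.22 CPM on the right.

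The rows of the tRNAs that flank mt-Nd3 were lower in KO as well. Unannotated copies of these tRNAs were not looked for, so no sum with a copy was taken, and the values are levels of rows. mt-Tg, the glycine tRNA, had 35, 31 and 33 counts in the WT libraries (0.681, 0.651 and 0.654 CPM) and 0 counts in each KO library. With a floor of 3 counts over the KO group, it was at least 30.4-fold lower in KO (edgeR adjusted p = 0.00852). mt-Tr, the arginine tRNA, had 32, 16 and 23 counts in WT and 2, 0 and 2 in KO. Pooled, mt-Tr was 16.3 times as high in WT, with a 95% counting interval of 6.10 to 61.6 (edgeR adjusted p = 0.0406). Both rows are 68 bases long, shorter than a read, so that a read on them can also cover a neighbour or an uncut precursor. Both calls rested on few counts: that of mt-Tg was lost without any single WT library (adjusted p up to 0.123), and that of mt-Tr without any library but KO replicate 3 (up to 0.256).

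In the whole table, 40 of 18250 genes tested were called (0.219%), 17 of them lower in KO (0.0932%) and 23 higher (0.126%). Of the 35 mitochondrial rows 32 passed the filter on low counts, and of these 4 were called lower, 0 higher and 28 not. The 0 higher stood at 0 also at an unadjusted p under 0.05 in edgeR, in DESeq2 and in limma-voom, each of which found 4 lower. Calls fell to 1, mt-Nd3, without any single WT library, and to 2, mt-Nd3 and mt-Tg, without KO replicate 1 or KO replicate 2. All 4 lay among the 8 tested rows that are wholly inside the copied stretch. The other 24 tested rows had 0 calls in edgeR, DESeq2 and limma-voom, and 0 at an unadjusted p under 0.05, where 9.16% of all genes stood. The median log2 fold change of the 24 was 0.06, with a range from -0.41 to 0.32, beside 0.0039 over all genes tested. The groups did not overlap in 5 of the 32 rows, the 4 called and mt-Tw, against 15.6% of all genes tested, which is near the background.

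**Figure D2:**
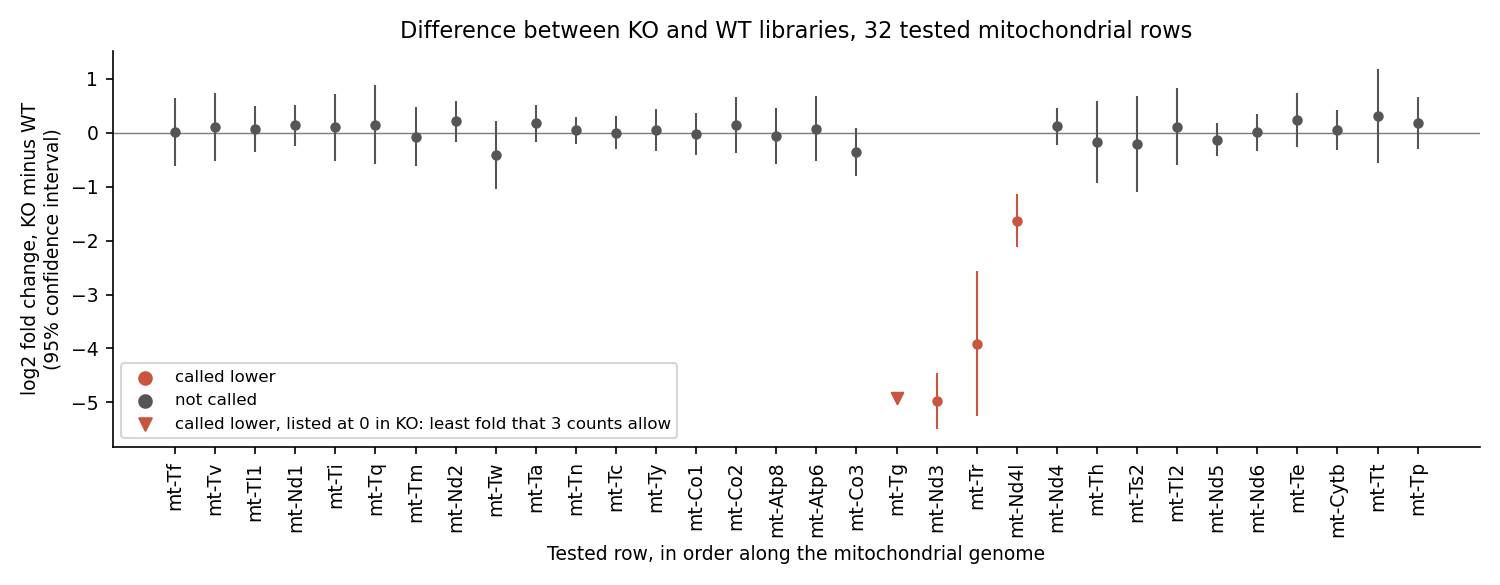
Log2 fold change of KO against WT with its 95% confidence interval for the 32 tested mitochondrial rows, in order along the genome. The 4 rows called lower (red) lie side by side from mt-Tg to mt-Nd4l, the triangle for mt-Tg being the least fold that a floor of 3 counts allows, and the other 28 (grey) lie between -0.41 and 0.32.

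The rest of the copied stretch holds the subunits mt-Co2 and mt-Co3 of complex IV, which hands electrons to oxygen, and the ATP synthase subunits mt-Atp6 and mt-Atp8. mt-Co3, which is next to mt-Tg, had 2.61, 3.34 and 3.83 CPM in WT and 3.07, 2.26 and 2.28 CPM in KO. WT replicate 1 was below KO replicate 1, so the groups overlapped (log2 fold change -0.36, SE 0.20, edgeR adjusted p = 0.626). Its copy Gm28437 (chromosome 1, 24613189 to 24613971) had 2.33, 2.92 and 3.13 CPM in WT and 4.33, 4.03 and 3.84 CPM in KO. No KO library was below a WT library in Gm28437, and the test did not pass (log2 fold change 0.54, SE 0.16, edgeR adjusted p = 0.358).

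mt-Co2 had 1.498, 1.95 and 2.52 CPM in WT and 2.67, 2.10 and 1.87 CPM in KO, and mt-Atp6 had 1.73, 3.25 and 3.21 CPM in WT and 3.65, 2.47 and 2.51 CPM in KO. mt-Atp8, which overlaps mt-Atp6 by 43 bases, had 0.798, 0.798 and 1.11 CPM in WT and 0.917, 0.895 and 0.789 CPM in KO. In all of these the groups overlapped, with log2 fold changes of 0.15, 0.08 and -0.06. The copy Gm28661 of mt-Co2 had 2.53, 4.45 and 4.54 CPM in WT and 5.05, 3.53 and 3.26 CPM in KO. The copy Gm10925 of mt-Atp6 had 3.27, 4.26 and 4.10 CPM in WT and 4.54, 3.81 and 4.78 CPM in KO. Both also overlapped between groups, with log2 fold changes of 0.04 (SE 0.26) and 0.18 (SE 0.16). Summed with their copies, mt-Co1, mt-Co2, mt-Atp6, mt-Co3 and mt-Nd4 had log2 fold changes of -0.02, 0.08, 0.14, 0.13 and 0.12, with edgeR adjusted p between 0.834 and 0.979 in a fit chosen after the data were seen.

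The rows inside the stretch had few of the counts assigned to mitochondrial rows. Per kilobase, mt-Co2 had 2.91 CPM in WT and 3.23 in KO, whereas mt-Co1, the other core subunit of complex IV, had 15391 in WT and 15175 in KO. Both are cut from the same precursor. The mitochondrial rows inside the stretch summed to 16.9, 22.6 and 23.9 CPM in WT and 11.1, 8.60 and 8.22 CPM in KO, and the 7 nuclear copies to 11.4, 16.6 and 16.8 CPM in WT and 33.8, 26.1 and 27.3 CPM in KO. How the counting handled reads with more than 1 match is not stated in the labels or files, so these values are levels of rows and not of the mRNAs. Its part in them was not tested.

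**Figure D3:**
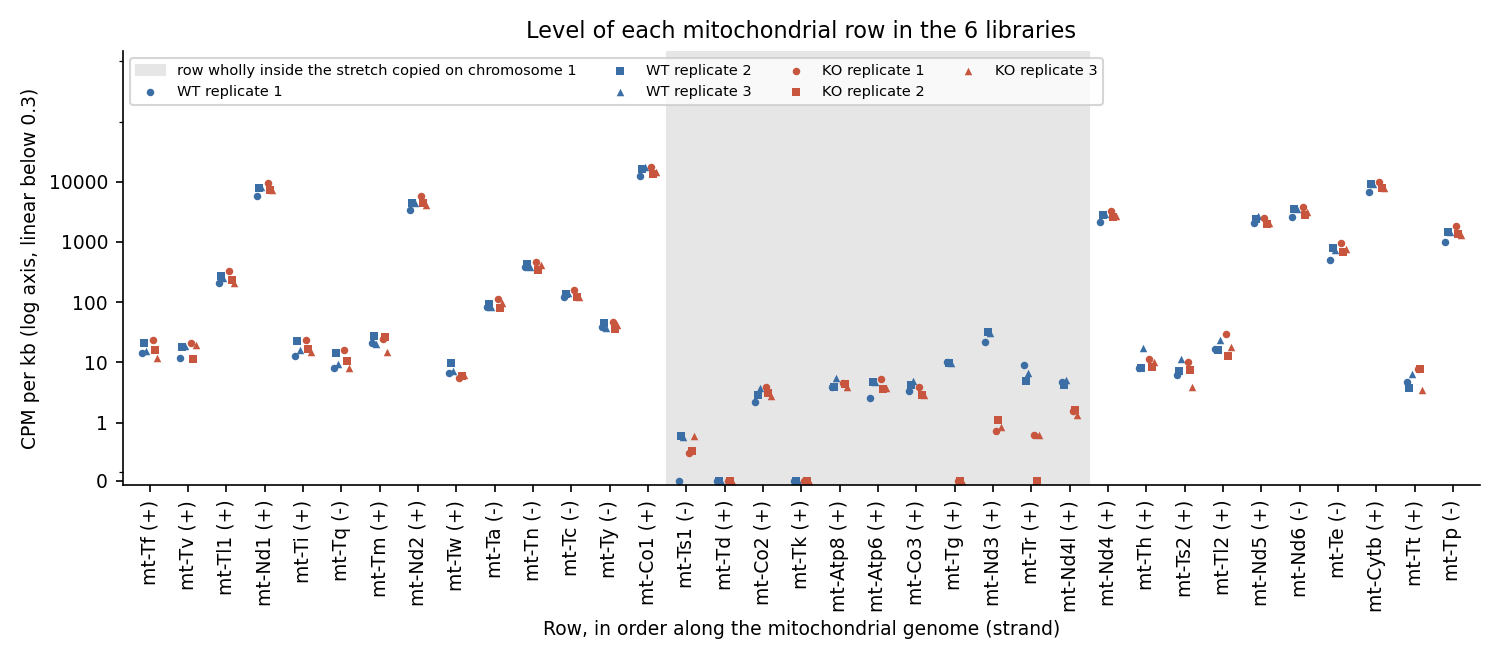
CPM per kilobase (log axis, linear below 0.3) of all 35 mitochondrial rows in order along the genome, with strand, 1 point per library. Rows in the grey stretch, which is copied on chromosome 1, reach at most 31.4, while mt-Co1 just before it reaches 17643, and the KO libraries stand apart from WT at mt-Tg, mt-Nd3, mt-Tr and mt-Nd4l.

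The share of a pair's counts that stood on the nuclear row was compared for all 7 pairs by an exact two-sided permutation test, for which 3 against 3 libraries allow no p below 0.1. For mt-Nd3 and Gm28438 the nuclear share was 2.74%, 4.75% and 3.79% in WT and 98.1%, 96.6% and 97.3% in KO. For mt-Nd4l and Gm10222 it was 22.8%, 28.6% and 17.4% in WT and 78.8%, 68.3% and 76.5% in KO. For mt-Co3 and Gm28437 it was 47.2%, 46.6% and 45.0% in WT and 58.5%, 64.0% and 62.7% in KO. In these pairs the KO shares were all above the WT shares, each with exact p = 0.1 (0.233 after Benjamini-Hochberg adjustment over the 7 pairs). The rows mt-Nd3, mt-Nd4l and mt-Co3 lie 0, 416 and 71 bases from T3C. From the interval in which the copy is longer by 1 base, they lie 0, 1 and 414 bases. Among the pairs whose shares overlapped, mt-Nd4 lies 706 bases from T3C and 291 from that interval, nearer to the interval than mt-Co3. The rows mt-Atp6, mt-Co2 and mt-Co1 lie 854, 1765 and 2589 bases from T3C and 1197, 2108 and 2932 from the interval. The part of either site in the shares was not tested. Of the 7 pairs, the difference between group means was largest at mt-Nd3, where the means were 3.76% ± 1.01 and 97.3% ± 0.766 (SD, n = 3 each). It was smaller at mt-Nd4l (22.9% ± 5.59 and 74.5% ± 5.57) and at mt-Co3 (46.3% ± 1.15 and 61.8% ± 2.89).

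In the other pairs the shares overlapped between groups. The nuclear share was 65.5% in WT and 63.9% in KO for mt-Co2, and 59.4% and 60.6% for mt-Atp6, where windows of read length are nearly all identical to the copy. It was 0.0371% and 0.0416% for mt-Nd4 and 0.0094% and 0.0099% for mt-Co1, which extend far beyond the stretch. Their exact p were 0.6, 0.9, 0.2 and 0.9.

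**Figure D4:**
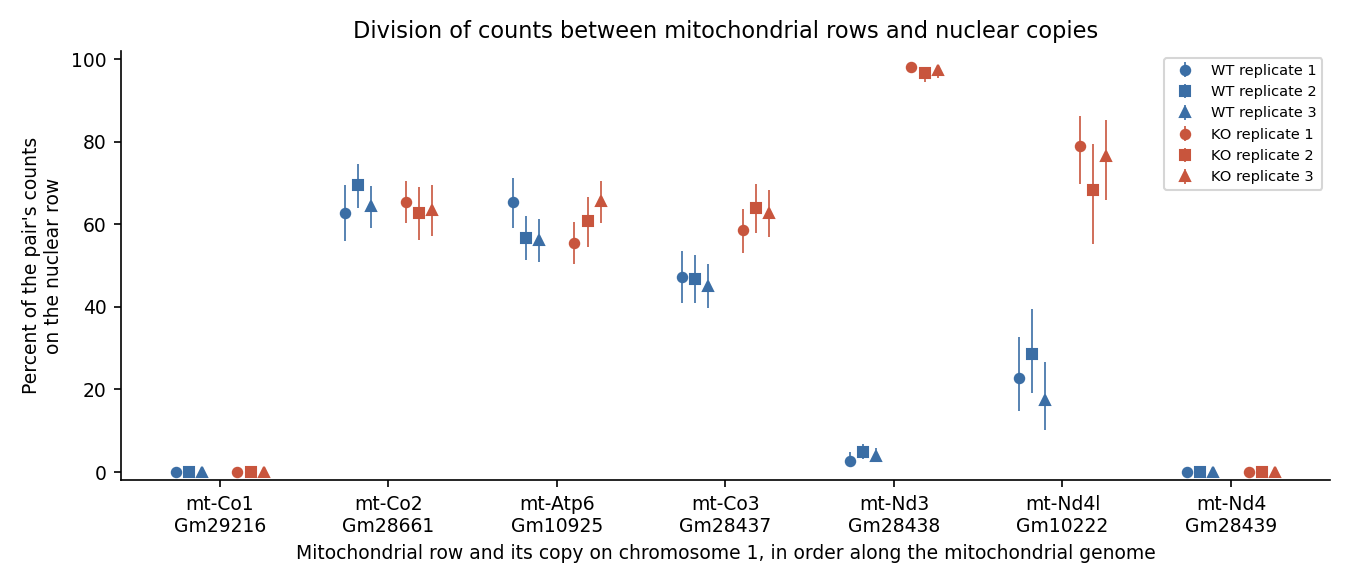
Percent of the counts of a mitochondrial row and its chromosome 1 copy that stood on the nuclear row, with exact 95% binomial intervals (counting error only), 1 point per library, pairs in order along the mitochondrial genome. KO (red) and WT (blue) lie apart at mt-Co3, mt-Nd3 and mt-Nd4l, from 2.74% to 4.75% against 96.6% to 98.1% at mt-Nd3, and overlap at the other pairs.

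The base at T3C and the length of the A run in mt-Tr are known to vary between the mitochondrial genomes of laboratory mouse strains; which bases these libraries carried was not analysed here. Nnt, a nuclear gene for a mitochondrial transhydrogenase that carries a deletion in C57BL/6J mice, was read beside these rows. Nnt had 43.6, 43.0 and 41.9 CPM in WT and 138, 112 and 107 CPM in KO, a log2 fold change of 1.47 (SE 0.10, edgeR adjusted p = 0.000254). All libraries carry the same strain label, and the part of the mice's strain background in the values of Nnt or of mt-Nd3 was not tested.

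Copies of mitochondrial sequence outside the stretch on chromosome 1 did not separate the groups. On chromosome 2, Gm13340, a copy of mt-Co1 at 97.6% identity, had 2.65, 4.32 and 4.62 CPM in WT and 4.16, 3.86 and 3.65 CPM in KO. Gm13341, a copy of mt-Co2 at 95.9% identity and also on chromosome 2, had 2.37, 3.23 and 3.53 CPM in WT and 3.71, 2.78 and 2.64 CPM in KO. Both overlapped between groups, with log2 fold changes of 0.01 (SE 0.21) and -0.00026 (SE 0.21). Another 6 copies elsewhere had too few counts to be tested. At the ends of the cluster on chromosome 1 itself, Gm29216 of mt-Co1 had 1.595, 2.54 and 2.66 CPM in WT and 3.26, 1.62 and 2.18 CPM in KO. Gm28439 of mt-Nd4 had 1.07, 1.34 and 1.59 CPM in WT and 1.77, 1.51 and 1.58 CPM in KO. These too overlapped, with log2 fold changes of 0.06 (SE 0.29) and 0.28 (SE 0.20).

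Of the counts assigned to mitochondrial rows, which here leave out rRNA, 7 mRNA rows held 99.6% in each library. Mitochondrial rows took 4.55%, 5.80% and 6.30% of all gene counts in WT and 6.27%, 5.08% and 5.04% in KO. WT replicate 1 was the lowest of the 6 libraries and WT replicate 3 the highest, so the groups overlapped, at 5.55% ± 0.903 and 5.47% ± 0.699 (exact two-sided permutation p = 0.9, where 0.1 is the smallest possible).

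mt-Co1, the catalytic subunit of complex IV, had 19158, 24921 and 27258 CPM in WT and 26899, 21135 and 22302 CPM in KO. mt-Cytb, the mitochondrially encoded subunit of complex III, which carries electrons from ubiquinol to cytochrome c, had 7663, 10318 and 10663 CPM in WT and 11504, 9150 and 9032 CPM in KO. For both, WT replicate 1 was the lowest library, and the log2 fold changes were -0.02 (SE 0.17) and 0.05 (SE 0.16).

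Of the larger complex I subunits, mt-Nd1, at the junction of the membrane and peripheral arms, had 5623, 7608 and 7800 CPM in WT and 9280, 6979 and 6938 CPM in KO. mt-Nd2 had 3537, 4676 and 4691 CPM in WT and 6119, 4584 and 4244 CPM in KO. Both were highest in KO replicate 1 and lowest in WT replicate 1 (log2 fold changes 0.14, SE 0.17, and 0.21, SE 0.17). mt-Nd4 and mt-Nd5, which form proton channels of the membrane arm, had 2901, 3860 and 3998 CPM and 3739, 4432 and 4832 CPM in WT. In KO, mt-Nd4 had 4498, 3548 and 3672 CPM and mt-Nd5 had 4503, 3618 and 3814 CPM. Their log2 fold changes, 0.12 (SE 0.15) and -0.12 (SE 0.14), had opposite signs and did not pass the test.

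mt-Nd6, a complex I subunit and the sole mRNA on the minus strand, had 1347, 1831 and 1844 CPM in WT and 1971, 1469 and 1609 CPM in KO (log2 fold change 0.01, SE 0.15). It overlaps mt-Nd5 by 14 bases, and no label or file states whether the counting used strand. Over these 7 mRNAs the edgeR adjusted p lay between 0.725 and 0.990. Relative to the WT mean, WT replicate 1 was lower by 0.21 to 0.32 on the log2 scale in every one of them, and KO replicate 1 was the highest KO library in every one, at 0.06 to 0.51.

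**Figure D5:**
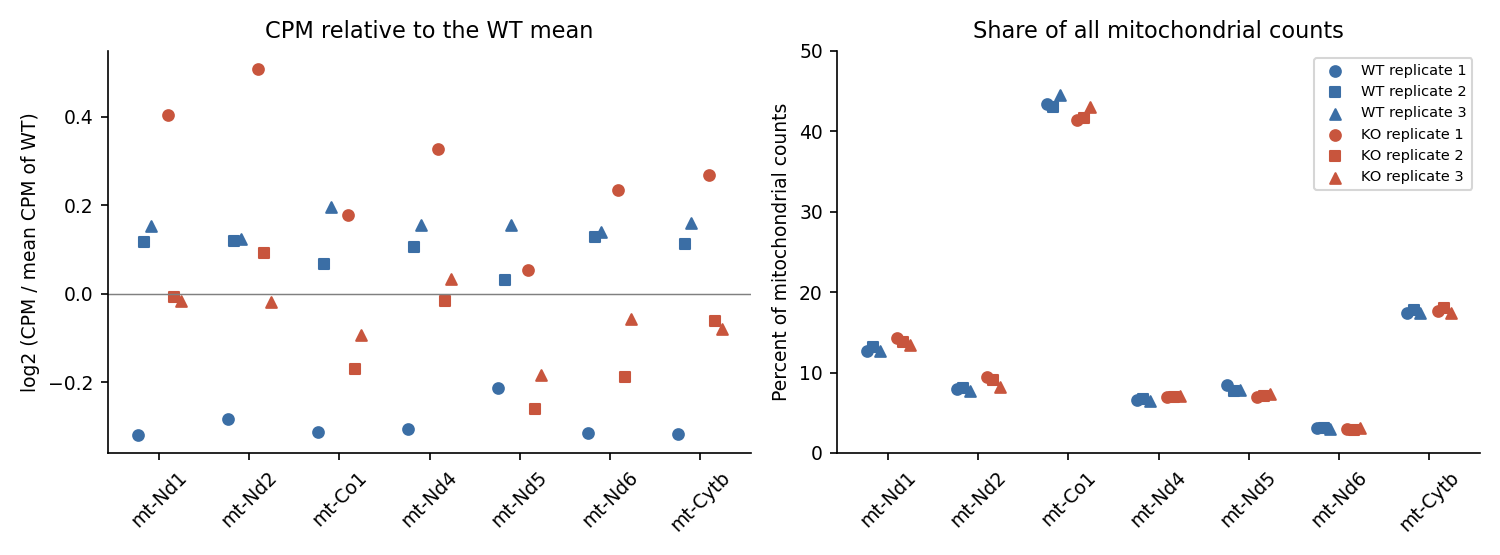
Left, log2 ratio of CPM to the WT mean for the 7 abundant mitochondrial mRNAs, 1 point per library; right, each mRNA's percent of a library's mitochondrial counts. On the left WT replicate 1 lies below the other WT libraries in all 7 and KO replicate 1 above the other KO libraries, and on the right mt-Co1 holds 43.6% of the counts on average in WT and 42.02% in KO.

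Taken as shares of the mitochondrial counts, which do not carry these shifts between libraries, the same mRNAs had narrower ranges. mt-Nd1 made up 12.9% ± 0.239 in WT and 13.8% ± 0.440 in KO, mt-Nd2 7.91% ± 0.231 and 8.88% ± 0.624, and mt-Nd4 6.59% ± 0.0746 and 6.999% ± 0.0859 (SD, n = 3 each). mt-Co1 made up 43.6% ± 0.729 and 42.02% ± 0.892, and mt-Nd5 8.00% ± 0.421 and 7.14% ± 0.219. The 3 WT and 3 KO shares did not overlap for any of these 5, upward for mt-Nd1, mt-Nd2 and mt-Nd4 and downward for mt-Co1 and mt-Nd5. Each had an exact two-sided permutation p of 0.1, or 0.14 after adjustment over the 7 mRNAs, which the design cannot take below the threshold. mt-Nd6 (3.07% and 3.01%) and mt-Cytb (17.5% and 17.7%) overlapped, with p = 0.5. Shares add up to a whole, so a higher share of some lowers the share of others. These shares were taken after the values were seen, and no background over all genes was computed for them. By CPM the groups of all 7 mRNAs overlapped.

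The order of levels per kilobase was the same in all 6 libraries. Over the 6 libraries mt-Co1 had 15283 ± 2117 CPM per kilobase (SD), mt-Cytb 8498 ± 1202, mt-Nd1 7703 ± 1261 and mt-Nd2 4472 ± 814. mt-Nd6 followed with 3234 ± 468, mt-Nd4 with 2719 ± 384 and mt-Nd5 with 2279 ± 272. Among all genes mt-Co1, mt-Cytb and mt-Nd1 ranked 1, 2 and 3 per kilobase, and mt-Nd5, the lowest of the 7, ranked 11. The ranges over libraries overlapped between all neighbours in this order except mt-Co1 and mt-Cytb, while within each library the order held. When levels were taken per 1000 windows not shared with a nuclear transcript, mt-Nd4 moved from position 6 to position 4 (7463 ± 1054, against 5222 ± 950 for mt-Nd2), and the order was again the same in all 6 libraries.

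The tRNA rows, which at 59 to 75 bases are shorter than a read, each had a mean per kilobase below those of the 7 abundant mRNA rows. The 8 on the minus strand had a median of 113 CPM per kilobase (range 0.406 to 1397) and the 14 on the plus strand a median of 9.16 (range 0 to 251). These medians include rows of the copied stretch, mt-Td, mt-Tk, mt-Tg and mt-Tr on the plus strand and mt-Ts1 on the minus strand. mt-Tp, the proline tRNA, was the highest, with 66.9, 96.9 and 99.1 CPM in WT and 123, 90.2 and 86.0 CPM in KO. mt-Te, the glutamate tRNA between mt-Nd6 and mt-Cytb, had 34.3, 55.2 and 51.0 CPM in WT and 66.2, 47.0 and 52.5 CPM in KO. In both, WT replicate 1 was the lowest and KO replicate 1 the highest library, as for mt-Cytb, mt-Nd1, mt-Nd2, mt-Nd4 and mt-Nd6 (log2 fold changes 0.19, SE 0.20, and 0.24, SE 0.21).

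The asparagine tRNA mt-Tn had 26.9, 30.1 and 27.6 CPM in WT and 33.3, 24.5 and 29.8 CPM in KO. The leucine tRNA mt-Tl1, which lies directly before mt-Nd1, had 15.7, 20.7 and 18.7 CPM in WT and 24.6, 17.6 and 15.5 CPM in KO. Both overlapped between groups, with log2 fold changes of 0.05 (SE 0.11) and 0.07 (SE 0.18). The next 3 tRNAs come from the minus strand cluster before mt-Co1. The cysteine tRNA mt-Tc had 8.15, 9.05 and 9.36 CPM in WT and 10.5, 7.94 and 8.12 CPM in KO. The alanine tRNA mt-Ta had 5.74, 6.32 and 5.63 CPM in WT and 7.87, 5.51 and 6.62 CPM in KO. The tyrosine tRNA mt-Ty had 2.57, 3.001 and 2.52 CPM in WT and 3.18, 2.38 and 2.82 CPM in KO. None of the 3 separated the groups, with log2 fold changes of -0.0011 (SE 0.14), 0.18 (SE 0.15) and 0.05 (SE 0.17).

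A further 5 tRNAs of the plus strand lay just above 1 CPM. The phenylalanine tRNA mt-Tf, the first gene of the plus strand, had 0.973, 1.45 and 1.03 CPM in WT and 1.58, 1.11 and 0.810 CPM in KO. The valine tRNA mt-Tv had 0.817, 1.24 and 1.27 CPM in WT and 1.43, 0.777 and 1.35 CPM in KO. The isoleucine tRNA mt-Ti had 0.876, 1.57 and 1.11 CPM in WT and 1.64, 1.13 and 1.04 CPM in KO. WT replicate 1 was the lowest WT library in each, and the groups overlapped. The methionine tRNA mt-Tm had 1.46, 1.87 and 1.41 CPM in WT and 1.68, 1.79 and 1.04 CPM in KO. The second leucine tRNA, mt-Tl2, had 1.17, 1.15 and 1.65 CPM in WT and 2.11, 0.895 and 1.29 CPM in KO. The log2 fold changes of these 5 lay between -0.07 and 0.12, with SE from 0.24 to 0.31. The tested tRNA rows under 1 CPM were mt-Tq, mt-Tw, mt-Th, mt-Ts2 and mt-Tt beside mt-Tg and mt-Tr. mt-Tw, the tryptophan tRNA, had 0.525 ± 0.110 CPM in WT and 0.393 ± 0.0272 in KO without overlap (log2 fold change -0.41, SE 0.28, edgeR adjusted p = 0.682). The 3 rows that did not pass the filter all lie in the copied stretch: mt-Td and mt-Tk had 0 counts in every library, and mt-Ts1 had at most 2 counts in any.

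The nuclear genes that copy, transcribe, process and translate the mitochondrial genome did not pass the test. In 7 lists with 184 genes, all tested (Mrpl12 is in 2 lists), 0 were called by edgeR, DESeq2 or limma-voom, and 1 (0.543%) stood at an unadjusted p under 0.05 in edgeR, where 9.16% of all genes did. That gene was Cdk5rap1, which modifies mitochondrial tRNAs, with 14.5 ± 0.679 CPM in WT and 18.3 ± 1.47 in KO (log2 fold change 0.33, SE 0.09, edgeR adjusted p = 0.304). The median log2 fold change of the 184 genes was -0.02.

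The 19 genes of mitochondrial DNA replication and nucleotide supply had a median log2 fold change of -0.05, and those with the smallest p were Ssbp1 (-0.14), the single-strand binding protein, and Dna2 (-0.25), a helicase and nuclease. The 10 genes of transcription had a median of -0.06. Tfam, which packages mitochondrial DNA and starts its transcription, had 58.6 ± 1.77 CPM in WT and 64.7 ± 5.03 in KO (log2 fold change 0.14), and Tfb2m, which opens the promoter, 22.6 ± 1.59 and 20.4 ± 0.933 (-0.15). The 21 genes of RNA cleavage, polyadenylation, stability and decay had a median of -0.00061, with Lrpprc, which stabilises mitochondrial mRNAs, at -0.12 and Ptcd1 at 0.09.

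Of the 21 genes of rRNA and tRNA modification (median -0.05), Cdk5rap1 and Trmt5 (-0.21) had the smallest p, and of the 22 of aminoacyl-tRNA synthesis (median -0.01), Pars2 (-0.24) and Nars2 (-0.16), the synthetases for proline and asparagine. The 14 translation factors had a median of 0.02, with Mrrf, the ribosome recycling factor, at -0.18 and Noa1 at -0.16. The 78 mitochondrial ribosomal proteins had a median of -0.01 and ranged from -0.16 (Mrpl1) to 0.16 (Mrps11). Apart from Cdk5rap1, none of the genes named from these lists passed even an unadjusted threshold, and the edgeR adjusted p of those 13 lay between 0.550 and 0.708.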

How the data were processed

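RNA of 6 libraries was sequenced, and the authors deposited 1 file per library with whole-number counts per gene, not normalized. The submitters' processing notes name STAR 2.5.2b, Trimmomatic 0.36, featureCounts and Subread 1.5.2, and the build GRCm38. Not given in the sources used here are the annotation release, whether strand was used, how multiply matching reads were counted, and whether the unit was a read or a pair. Reads of near-identical copies and of overlapping genes therefore have uncertain rows.

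Groups and replicate numbers came from the labels, and no library was left out. Identifiers were matched to GENCODE M21 (48970 matched, 345 not), and all 35 mitochondrial rows had the coordinates given there. In edgeR 4.0.16 (R 4.3.3), filterByExpr kept 18250 genes, TMM gave the scaling factors, and a robust quasi-likelihood model of genotype alone gave the p-values, adjusted by Benjamini-Hochberg over those 18250. Calls needed an adjusted p under 0.05. CPM use TMM-adjusted library sizes, and log2 fold changes are those fitted by that model. Between libraries of 1 group the counts differed by 16.74 to 95.49 times the sampling noise (chi-square per degree of freedom), so no 2 files agreed within sampling noise, which does not show that they came from separate animals. Intervals of log2 fold changes come from the edgeR model and cover the variation between libraries. Intervals of pooled counts, binomial intervals and floors cover counting error only. Reads without molecular identifiers are not independent molecules.

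Nuclear copies were found with blastn 2.17.0 among GENCODE M21 transcripts (at least 300 aligned bases, at least 90% identity), beside Gm10222 (294 aligned bases), which was fixed together with Gm28438 as a copy to show. Sequences are from those transcripts. The members, the lists and the tests were chosen with earlier results of these data known. The naming rule took every mitochondrial mRNA, each tRNA called or with a mean of at least 1 CPM, Gm28438, Gm10222, the other copies with at least 1 CPM, Kdm6b, Nnt, and the 2 genes with the smallest p of each list. mt-Tw and Amhr2 were named, and the shares within pairs and within the mitochondrial counts were added, after the values were seen. Alternatives were RLE and upper quartile factors, library sizes from the rows outside MT, DESeq2 1.42.0, limma-voom (limma 3.58.1), other filters, a replicate block and leaving out each library. The steps were tested on simulated data.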

Additional observations from a re-analysis of the deposited data

How the results depend on the processing

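mt-Nd3 passed the threshold under all 14 alternatives to the fit, with log2 fold changes from -5.13 to -4.75, and the sum of mt-Nd3 and Gm28438 passed under none (0.05 to 0.30 when a library was left out). The number of mitochondrial rows called was 3 or 4 under the other normalizations, tools and without a filter, 1 with a minimum mean of 1 CPM, which tested 23 rows, and between 1 and 4 when a library was left out. With upper quartile factors mt-Tr was the row lost (adjusted p = 0.0548). mt-Nd4l ranged from -1.71 to -1.55 when a library was left out, with adjusted p from 0.00483 to 0.178. The sum of mt-Nd4l and Gm10222, near 0, turned to -0.019 with upper quartile factors, -0.14 with limma-voom, -0.011 without a filter and -0.0048 at 1 CPM, and ranged from -0.18 to 0.12 when a library was left out. The difference in mitochondrial share, which here leaves out rRNA, ranged from -0.585 to 0.291 percentage points when a library was left out. A share with rRNA was not computed, since rRNA genes were not analysed here.

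No sign of pairing by replicate number was seen: deviations of same-numbered libraries correlated at -0.017, 0.074 and -0.033, and not every library correlated best with its own number. With 3 libraries in each group, these values cannot show that the libraries were unpaired. With the replicate block 1 mitochondrial row was called (mt-Nd3, -4.97, adjusted p = 0.000139). mt-Nd4l stood at -1.63 (adjusted p = 0.102), mt-Tg at an adjusted p of 0.0735 and mt-Tr at 0.0854. With the block the sum of mt-Nd3 and Gm28438 was 0.22, that of mt-Nd4l and Gm10222 -0.012, and the share differed by -0.084 percentage points (exact paired permutation p = 1). The cause of these changes was not tested.

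Rows that did not pass the test changed sign in places. With upper quartile factors mt-Tf was at -0.0013 and mt-Nd6 at -0.016. mt-Nd6 was at -0.0078 without a filter and at -0.0019 at 1 CPM. With limma-voom the values were -0.19 for mt-Tv, 0.10 for mt-Tm, -0.079 for mt-Tn, -0.059 for mt-Ty, -0.24 for mt-Tl2, -0.070 for mt-Nd6 and -0.17 for Gm29216. When a library was left out, mRNA rows ranged from -0.018 to 0.22 (mt-Nd1), -0.15 to 0.088 (mt-Co1), -0.017 to 0.36 (mt-Co2), -0.15 to 0.12 (mt-Atp8), -0.17 to 0.21 (mt-Atp6), -0.0087 to 0.21 (mt-Nd4), -0.13 to 0.096 (mt-Nd6) and -0.084 to 0.14 (mt-Cytb). The tRNA rows ranged from -0.27 to 0.23 (mt-Tf), -0.076 to 0.33 (mt-Tv), -0.16 to 0.20 (mt-Tl1), -0.14 to 0.34 (mt-Ti), -0.21 to 0.14 (mt-Tm), -0.060 to 0.16 (mt-Tn), -0.15 to 0.070 (mt-Tc), -0.056 to 0.15 (mt-Ty) and -0.28 to 0.36 (mt-Tl2). The copies ranged from -0.19 to 0.18 (Gm28661) and -0.25 to 0.27 (Gm29216). Depth limits the rows with fewest counts, mt-Tg and mt-Tr among the called.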
